A study of Drosophila melanogaster with 33 samples.

Results

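Heads of female Drosophila melanogaster aged 20 days were compared with heads of females aged 10 days, which is 6 of the 33 samples of an aging series, 3 of each age. Both groups were flies of the wild-type strain CantonS (CS in the labels, genotype WT), which were left to mate for 3 days, then kept apart from the males and frozen at their age. Each sample is RNA from many pooled heads, depleted of ribosomal RNA and sequenced as a total RNA library, so linear RNAs and circular RNAs (circRNAs) were read from one library. The series also holds females of other ages and males, and the males of day 20 and day 10 (4 samples) serve here for the comparison between the sexes. The labels call the samples biological replicates, but nothing states that they came from separate cultures, so p-values measure the spread between these samples.

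The fly head is more than a brain. Beside neurons, glia and the eyes it holds fat body, the tissue that stores lipid and sugar, makes yolk proteins in females and secretes antimicrobial peptides, as well as muscle and the cuticle-forming epidermis. Fragments of bacterial cell wall start the Imd pathway and other bacterial or fungal products the Toll pathway, and both switch on genes of antimicrobial peptides in the fat body. CircRNAs are made from exons by back-splicing, in which the end of an exon is joined backwards onto its own beginning or onto that of an exon before it. They lack free ends, are degraded slowly and are abundant in neurons.

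Values are normalized reads, that is the reads of a gene, or the back-splice junction reads of a circRNA, divided by one size factor per library. In reads recovered from the deposited values, the 6 libraries held 51172958 to 94953552 linear reads and 69295 to 169896 circRNA reads. The paper lists nearly the same linear reads for them but fewer circRNA reads, and the cause of this gap was not tested. Differences are given as log2 of day 20 over day 10 on the scale log2(value + 1), and a feature was called when the p-value of limma, adjusted by Benjamini-Hochberg over all features tested, was under 0.05 and the difference was beyond 0.5. A signed number in parentheses after a gene or circle is its log2 difference. The label of heads was checked against markers. The 6 photoreceptor markers summed to 1587392 to 1615857 normalized reads at day 20 and 1531688 to 1581339 at day 10. The 5 gut markers summed to 17.8 to 52.7 at day 20 and 11.8 to 22.5 at day 10, with alphaTry and betaTry at 0 in all 6 libraries. Among the 5, LysD was called higher, with 12.5, 49.3 and 15.8 at day 20 and 4.93, 5.91 and 19.1 at day 10 (limma adjusted p = 0.0467). The sum of 5 fat body markers was 5285081 to 5569518 at day 20, against 2096211 to 2534178 at day 10. The 5 neuronal markers summed to 213121 to 216817 at day 20, against 249614 to 261228 at day 10. Among these, brp (-0.38), Syt1 (-0.40) and para (-0.31) lay lower at day 20, whereas elav (-0.05) and nSyb (0.01) hardly differed. In bulk samples, fewer cells of a type and less RNA per cell cannot be told apart. Male day 20 replicate 1 differed in composition from its partner (RpS29 12745 and 36021 normalized reads in male day 20 replicates 1 and 2). The counts of linear genes that differed between the sexes are given with and without it. Other values between the sexes include it unless stated.

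Genes were tested when they averaged 10 or more normalized reads. Of these 12685 genes, 769 (6.06%) were called higher and 293 (2.31%) lower at day 20 than at day 10, together 8.37%. These shares are the background for the counts of each gene list below. The values of the ages did not overlap for 51.1% of genes, in either direction. The median difference over all genes was 0.02. Genes of antimicrobial peptides and of secreted fat body proteins were among the largest rises, and the falls included CG11458, the wing gene dy and genes of neurons, muscle and cuticle.

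**Figure D1:**
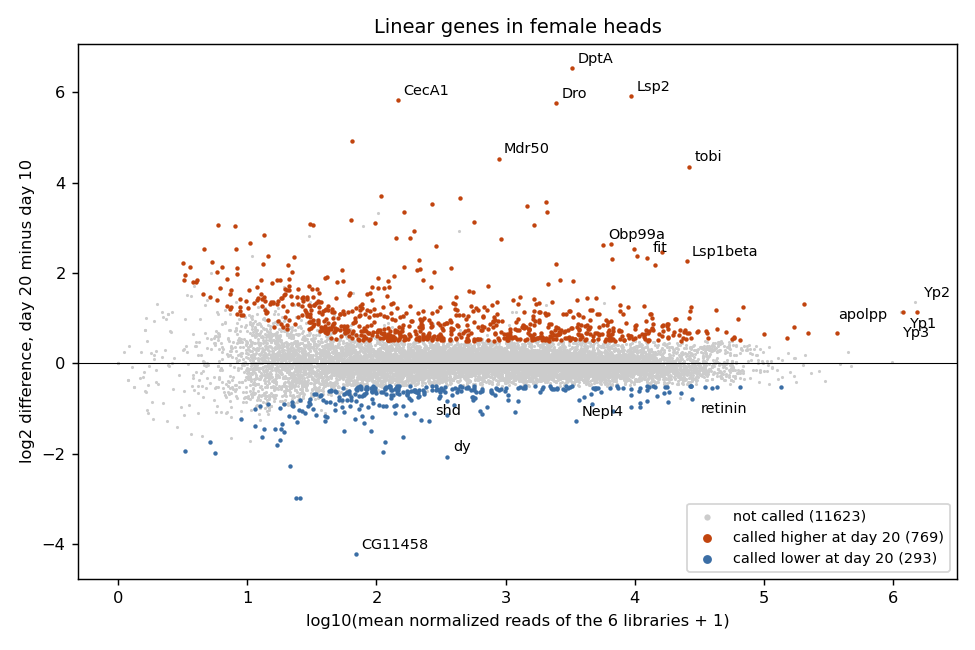
Difference in linear RNA of each gene between day 20 and day 10 females (log2, vertical axis) against its mean level in the 6 libraries (log10 of normalized reads, horizontal axis). Orange points are the 769 genes called higher, blue points the 293 called lower and grey points the genes not called; DptA lies at 6.53 and CG11458 at -4.23.

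Antimicrobial peptide genes were among the largest rises. Of 15 members tested, 12 were called higher and 0 lower (1 lower, Def, without day 20 replicate 1 or when scaled to total linear reads), with a median difference of 3.05, against 6.06% of all genes called higher and a median of 0.02. DptA, which encodes a diptericin, a peptide of the Imd response against Gram-negative bacteria, had 8329, 6285 and 4764 normalized reads at day 20, against 63.1, 174 and 27.0 at day 10 (log2 difference 6.53, SE 0.79, limma adjusted p = 1.05e-06). All 3 libraries of day 20 lay far above those of day 10, among which replicate 2 was the highest. Its neighbour DptB, a second diptericin gene, had 5039, 3429.9 and 2795 at day 20 and 305, 637 and 144 at day 10 (log2 difference 3.58). Dro, the gene of the proline-rich peptide drosocin, had 4726, 4832 and 4788 at day 20 and 60.2, 233 and 47.3 at day 10 (log2 difference 5.76, limma adjusted p = 1.44e-06). The day 20 values of Dro were nearly equal, whereas those of day 10 spread widely, again with replicate 2 on top.

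The cecropin genes, whose peptides break bacterial membranes, had few reads at day 10. CecA1 had 525, 182 and 155 normalized reads at day 20 and 2.96, 8.86 and 1.13 at day 10 (log2 difference 5.82, SE 1.04), and CecA2 209.8, 78.0 and 81.3 at day 20 and 0.99, 10.8 and 1.13 at day 10 (log2 difference 4.91). Day 20 replicate 1 was the highest library for both, and neither gene overlapped between the ages. CecB (3.05) and CecC (2.76) also rose. CecA1 and CecA2 are near-identical copies, as are AttA and AttB, and their shares of the reads may be uncertain. The attacin genes AttA (3.71), AttB (3.07), AttC (2.31) and AttD (2.60) rose, with AttC the most abundant at 15659, 9171 and 8538 normalized reads at day 20, against 1589, 3758 and 1680.2 at day 10. Drs, the gene of the antifungal peptide drosomycin and the classical target of Toll, rose less, with 3904, 3561 and 4695 at day 20 and 925, 914 and 790.0 at day 10 (log2 difference 2.20, limma adjusted p = 4.54e-05).

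The 3 members not called were Mtk, Def and Drsl5. Mtk, the metchnikowin gene, had 1596, 1396 and 1238 normalized reads at day 20 and 297, 1660.3 and 529 at day 10, so that day 10 replicate 2 lay above all day 20 libraries (limma adjusted p = 0.0555). Def, the defensin gene, had 805, 487 and 375 at day 20 and 734, 738 and 819 at day 10 (log2 difference -0.53, limma adjusted p = 0.0525), and its ages overlapped. Def was called lower without day 20 replicate 1 (-0.83) and when scaled to total linear reads (-0.66, limma adjusted p = 0.0133). DptA stayed high in older females. It averaged 175 normalized reads in females at day 0, then 9606 in those of day 30, 9448 in those of day 40 and 15125 in those of day 50.

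The promoters of both CecA genes are shown because they carry letters of the binding motif of NF-kappaB factors, the class of factor that ends the Imd and Toll pathways. They run from 250 bases before to 50 bases after the start of the gene in the Ensembl annotation, read from the RefSeq genome of Release 6 (dm6) on the plus strand, CecA1 at chr3R:30210624-30210923 and CecA2 at chr3R:30211906-30212205, and capitals mark each match to GGGGATT or to its reverse complement AATCCCC.
CecA1: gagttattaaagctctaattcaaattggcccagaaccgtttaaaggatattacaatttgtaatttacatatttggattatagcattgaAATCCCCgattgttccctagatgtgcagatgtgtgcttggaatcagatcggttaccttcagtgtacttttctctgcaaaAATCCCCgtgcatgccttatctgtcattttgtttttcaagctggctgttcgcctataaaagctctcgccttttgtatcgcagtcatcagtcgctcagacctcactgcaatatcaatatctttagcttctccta
CecA2: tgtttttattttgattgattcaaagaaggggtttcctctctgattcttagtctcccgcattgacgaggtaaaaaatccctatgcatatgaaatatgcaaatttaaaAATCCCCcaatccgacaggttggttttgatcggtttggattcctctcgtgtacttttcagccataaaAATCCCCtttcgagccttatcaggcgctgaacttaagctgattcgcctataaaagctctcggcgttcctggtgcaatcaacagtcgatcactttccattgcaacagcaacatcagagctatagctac
CecA1 matched at 162 and 83 bases before the start and CecA2 at 144 and 77 bases before it, counted to the first base of the match. Of 12572 promoters of tested genes, 282 (2.24%) held the letters on either strand, as did 3 of the 15 promoters of the list, those of CecA1, CecA2 and DptA. A match is a description of letters and not a bound site.

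Genes of peptidoglycan recognition and of the Toll and Imd core rose in smaller number. Of 30 tested, 5 were called higher and 0 lower (median 0.20), against 6.06% and 2.31% of all genes. PGRP-SC2, a secreted amidase that digests peptidoglycan, had 1129, 722 and 596 normalized reads at day 20 and 50.3, 97.5 and 47.3 at day 10 (log2 difference 3.66, limma adjusted p = 1.41e-06). PGRP-SA, the receptor upstream of Toll, had 1170.2, 1154 and 1166 at day 20 and 489, 630.3 and 530.1 at day 10 (log2 difference 1.09), and the ages did not overlap for either gene. The amidase gene PGRP-SB1 (1.16), GNBP-like3 (1.33) and GNBP3 (0.51), which binds fungal glucan, were the other called members. Rel, which encodes the factor of the Imd pathway, had 12879, 12024 and 13029 normalized reads at day 20 and 11285, 12829.6 and 11801 at day 10 (log2 difference 0.08, limma adjusted p = 0.458).

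Of 16 Toll-induced short peptides, 6 were called higher and 0 lower (median 0.54), against 6.06% and 2.31% of all genes. The count of higher ones was 1 without day 10 replicate 3, and 3 without day 20 replicate 1 or replicate 3. It was 4 without day 10 replicate 1 and 2 when scaled to total linear reads. BomS6, a bomanin, had 2812, 3167 and 2633 normalized reads at day 20 and 1089, 1720.4 and 1267 at day 10 (log2 difference 1.10, limma adjusted p = 2.60e-04). BomS1 had 5853, 5280.1 and 5932 at day 20 and 3961, 4649 and 2796 at day 10 (log2 difference 0.61, limma adjusted p = 0.0211), and its call was lost without day 20 replicate 1, day 20 replicate 3 or day 10 replicate 3 (adjusted p = 0.0585 to 0.159). Of 17 genes of the Turandot family and JAK-STAT signalling, 2 were called higher, Stat92E (0.55), the transcription factor of that pathway, and the thioester protein gene Tep2 (0.56). The count was 5 without day 10 replicate 2 and 0 when scaled to total linear reads. TotA, a secreted stress peptide, had 9974, 7966 and 5876 normalized reads at day 20 and 1424, 6592 and 3147 at day 10 and was not called (limma adjusted p = 0.108). SPH93, a serine protease homolog, had 203, 235 and 427 at day 20 and 17.8, 71.9 and 13.5 at day 10 (log2 difference 3.34).

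**Figure D2:**
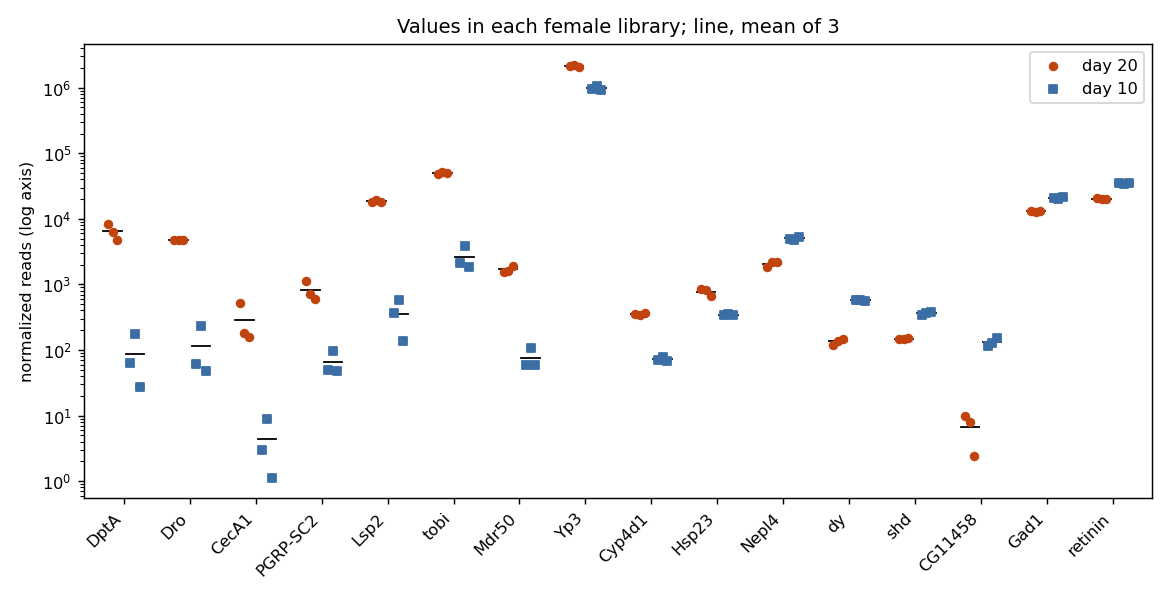
Normalized reads (log axis) of 16 named genes in each library, day 20 as orange circles to the left and day 10 as blue squares to the right, with the mean of 3 libraries as a line. The genes were chosen with their values known. The 3 day 20 values of each gene lie apart from its 3 day 10 values, as was so for 51.1% of all genes in either direction. DptA has 8329, 6285 and 4764 at day 20 and 63.1, 174 and 27.0 at day 10.

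Secreted proteins of the fat body formed the second group. Lsp2, a storage protein of the larval blood, had 18087, 19511 and 18041 normalized reads at day 20 and 365, 575 and 138 at day 10 (log2 difference 5.91, SE 0.45, limma adjusted p = 1.02e-09). Of 6 larval storage protein genes 3 were called higher, the others being Lsp1beta, with 43527, 46707 and 35568 at day 20 and 8572, 9606 and 7933 at day 10 (2.26), and Lsp1alpha, with 91.0, 135 and 116 at day 20 and 13.8, 12.8 and 9.003 at day 10 (3.16). None of these 3 genes overlapped between the ages. Lsp1gamma had 158, 109 and 143 at day 20 and 122, 129 and 167 at day 10 (log2 difference -0.03).

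Yolk proteins were the most abundant RNAs of this group. Yp3 had 2113801, 2245124 and 2050633 normalized reads at day 20 and 960976, 1054226 and 906527 at day 10 (log2 difference 1.14, limma adjusted p = 0.0197), and its call was lost without day 20 replicate 2, day 10 replicate 1 or day 10 replicate 3 (adjusted p = 0.0507 to 0.0592). Yp1 had 1557362, 1649073 and 1563171 at day 20 and 749978, 783004 and 635700.3 at day 10 (log2 difference 1.14, limma adjusted p = 0.267), and Yp2 had 2138616, 2215955 and 2042875 at day 20 and 851820.3, 870709.5 and 788503 at day 10 (log2 difference 1.35, limma adjusted p = 0.18). For all 3 genes every day 20 library lay above every day 10 library. Yp1 and Yp2 were not called in the model of all 12 groups of sex and age, in which the male libraries shared the estimate of the spread. In males Yp1 had 213 and 1208 at day 20 and 6054 and 174 at day 10. In a model of the females alone the limma adjusted p was 2.32e-05 for Yp1 and 1.60e-06 for Yp2.

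Of 9 genes of yolk and the female fat body 4 were called higher and 0 lower (median 1.14). The lipid carrier gene apolpp had 1653463, 1664367 and 1641086 normalized reads at day 20 and 722832, 874682 and 668397 at day 10 (log2 difference 1.14, limma adjusted p = 4.90e-06). The gene fit, a female-enriched secreted peptide of the fat body that acts on feeding, had 21794, 20611 and 19907 at day 20 and 3838, 5207 and 3473 at day 10 (log2 difference 2.34, limma adjusted p = 0.00348). Mtp, which loads lipid onto such carriers, rose by 0.71. The lipoprotein receptor genes LpR1 (-0.25) and LpR2 (-0.15) were not called. The 3 yolk protein genes and apolpp together made up 11.95% of linear reads at day 20, against 5.72% at day 10, and held 78.33% of the difference in total normalized linear reads.

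That total was 62448307 to 63469320 normalized reads at day 20, against 57217241 to 57590869 at day 10 (1.09-fold, two-sided exact permutation p = 0.1, the smallest that 3 against 3 allows). Without these 4 genes the totals of day 20 were 1.02-fold those of day 10. Scaling each library to its total linear reads lowered all differences by about 0.13 and moved the median of all genes to -0.11, and 529 genes were then called higher and 708 lower. The differences below refer to the size factors of the table, and the count of a list under the other scaling is given where it moved by over 1.5 times.

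Other genes with large rises are known from metabolism and transport. tobi, a glucosidase-like gene controlled by insulin signalling and diet in the fat body, had 49082, 52155 and 50659.9 normalized reads at day 20 and 2138, 3904 and 1813 at day 10 (log2 difference 4.35, limma adjusted p = 2.36e-11). Mdr50, a transporter of the ABC family, had 1549.5, 1628 and 1895 at day 20 and 58.2, 107 and 59.6 at day 10 (log2 difference 4.53, limma adjusted p = 7.11e-13). Gnmt, which uses up the methyl donor S-adenosylmethionine, had 3149.8, 2545 and 2422 at day 20 and 166, 285 and 296 at day 10 (log2 difference 3.47). In these 3 genes the libraries of an age lay close together compared with the distance between the ages. The amylase genes Amy-p (3.54) and Amy-d (1.43), which are near-identical copies, also rose. FBgn0028519, for which the annotation used here gives no name, had 3455, 3908 and 3889.7 at day 20 and 159.8, 836 and 376 at day 10 (log2 difference 3.34).

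Of 18 genes of lipid synthesis and storage, 9 were called higher and 0 lower, against 6.06% and 2.31% of all genes. Their median was 0.48, against 0.02 for all genes. AcCoAS, which makes acetyl-CoA from acetate, had 82760.2, 87502 and 83093 normalized reads at day 20 and 41358, 43617 and 43423 at day 10 (log2 difference 0.98, SE 0.05, limma adjusted p = 4.89e-13). ATPCL (0.72), which makes acetyl-CoA from citrate, ACC (0.55), the acetyl-CoA carboxylase, FASN1 (0.68) and FASN2 (1.59), the fatty acid synthases, and Desat1 (0.68), a desaturase, rose as well. In each of these genes the 3 day 20 libraries lay above the 3 day 10 libraries. The lipase gene bmm, whose protein breaks down stored fat, rose too, with 8689, 8875 and 8116 at day 20 and 3879, 4999 and 4561 at day 10 (log2 difference 0.94). Of 17 glycolysis genes 4 were called higher and 0 lower (median 0.26), which were Ldh (1.14), the lactate dehydrogenase, Hex-C (0.72), a hexokinase, Pgi (0.70) and Pgm1 (0.60). Ldh had 1778, 2115 and 1799 normalized reads at day 20 and 836, 888 and 846 at day 10. Men, the malic enzyme that supplies NADPH, rose by 0.67 and the peroxiredoxin gene Prx2 by 0.67, and with Prx6b and Prx6c they were the 4 of 19 genes of redox control called higher.

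Genes of detoxification were called in both directions. Over all genes 6.06% were called higher and 2.31% lower. Of 79 cytochrome P450 genes 20 were called higher and 2 lower (median 0.19). Cyp4d1 had 358, 339 and 371 normalized reads at day 20 and 71.0, 78.8 and 67.5 at day 10 (log2 difference 2.28, SE 0.14, limma adjusted p = 2.28e-12). Cyp309a2 had 3247, 3345 and 3178 at day 20 and 876, 1194 and 876 at day 10 (log2 difference 1.74), and Cyp6g1, known from resistance to insecticides, 22257, 22827 and 22610.4 at day 20 and 13076, 12324 and 13060.5 at day 10 (0.82). The ages did not overlap for any of these 3 genes. Of 32 glutathione transferase genes 4 were called higher and 1 lower (1 and 2 when scaled to total linear reads, and 0 lower without day 20 replicate 3), and of 28 UDP-glycosyltransferase genes 4 were called higher and 0 lower. Of 33 odorant-binding protein genes 6 were called higher and 1 lower (2 lower when scaled to total linear reads, and 0 lower without any one of the 6 libraries). Obp99a, a member found outside the antenna as well, had 10085, 10093 and 9049 at day 20 and 1484, 1908 and 1388 at day 10 (log2 difference 2.62, limma adjusted p = 2.35e-04).

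Heat shock genes were divided. Of 10 small heat shock protein genes 3 were called higher and 3 lower (median -0.01), against 6.06% and 2.31% of all genes. Hsp23 had 838, 831 and 664 normalized reads at day 20 and 343, 349.6 and 342 at day 10 (log2 difference 1.16), and Hsp26 (1.07) and Hsp27 (1.11) rose with it, whereas CG7409 (-0.66), CG4461 (-0.51) and Hsp67Bc (-0.50) fell. The count of lower genes was 1 without day 20 replicate 1 or day 10 replicate 3. Day 20 replicate 2 was the highest library for Hsp26 and Hsp27. Of 19 other chaperone genes 5 were called higher, among them Hsp68, with 2445, 2806 and 2116 at day 20 and 773, 1196 and 1008 at day 10 (1.32), and 4 Hsp70 copies that are nearly identical to each other and therefore uncertain as single genes. Of 84 cytosolic ribosomal protein genes 2 were called higher, but 82 had a positive difference and the median was 0.35 (0.22, with 0 called, when scaled to total linear reads). The count was 4 without day 10 replicate 2 and 1 without day 20 replicate 2, day 10 replicate 1 or day 10 replicate 3. RpL30 had 21649, 22066 and 21289 at day 20 and 14281, 15254 and 13747 at day 10 (0.59), and the other, RpS29 (0.54), lost its call when any one library of day 20 was left out, without day 10 replicate 1 and without day 10 replicate 3 (adjusted p = 0.0664 to 0.117). Of 32 proteasome genes 0 were called by limma, edgeR or DESeq2, with 9 at an unadjusted limma p under 0.05 (median 0.11, and -0.02 when scaled to total linear reads). Of 14 genes of dosage compensation and sex determination, dsx, which encodes the sex-specific transcription factor doublesex, had 7618, 7768 and 7897 at day 20 and 5266, 5238 and 4896 at day 10 (0.60), and lncRNA:roX1 rose by 0.69. They were the 2 members called higher, and dsx lost its call when scaled to total linear reads (0.47).

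**Figure D3:**
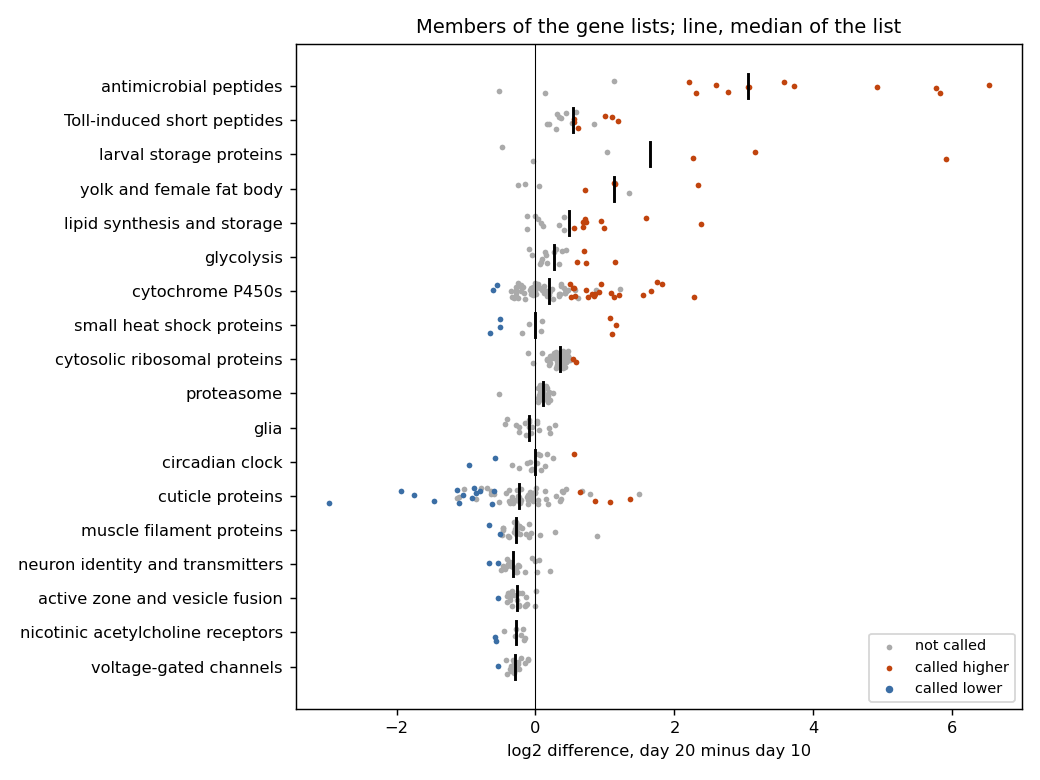
Difference between day 20 and day 10 females (log2, horizontal axis) of each member of 18 gene lists (rows), with the median of the list as a line. Orange points were called higher, blue points lower and grey points not called; the antimicrobial peptides have the highest median (3.05) and the neuronal lists have medians from -0.26 to -0.32.

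Genes of neurons lay lower at day 20, mostly by less than the limit of a call. Of 23 genes of neuron identity and transmitters 2 were called lower and 0 higher (median -0.32, with 3 positive), against 2.31% of all genes called lower. When scaled to total linear reads, 9 were called lower. Gad1, which makes the inhibitory transmitter GABA, had 13299, 12892 and 13219 normalized reads at day 20 and 20828, 20389.7 and 21339 at day 10 (log2 difference -0.67, SE 0.03, limma adjusted p = 4.02e-14). ChAT, which makes acetylcholine, had 4261, 4216 and 4159 at day 20 and 6051, 5973 and 6336 at day 10 (log2 difference -0.54, limma adjusted p = 1.12e-08). Both genes had 3 values of day 20 below all 3 values of day 10. VGlut (-0.23), the vesicular glutamate transporter, and Vmat (-0.25), the monoamine transporter, were under the limit of 0.5, and ple, which starts dopamine synthesis, had 3293, 3344 and 3157 at day 20 and 2789.5, 2859 and 2852 at day 10 (log2 difference 0.20, limma adjusted p = 0.398). elav and nSyb, which mark neurons in general, had log2 differences of -0.05 and 0.01 (limma adjusted p = 0.753 and 0.919).

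Synaptic and channel genes had the same sign. All 9 nicotinic acetylcholine receptor genes and all 18 voltage-gated channel genes had negative differences, with medians of -0.28 and -0.30. Among them 2 and 1 were called, against 2.31% of all genes called lower. nAChRbeta1 had 10091, 9965 and 10105 normalized reads at day 20 and 15389.7, 15166 and 14702 at day 10 (-0.59), and nAChRbeta2 had 1854, 1797 and 1908 at day 20 and 2791, 2709 and 2765 at day 10 (-0.57). The called channel was the sodium channel gene NaCP60E, with 35883, 35508 and 35768 at day 20 and 52819, 51169.7 and 51438 at day 10 (-0.54, limma adjusted p = 3.24e-10). Of 21 genes of the active zone and vesicle fusion, 20 were negative (median -0.26) and comt, the NSF ATPase that takes fused SNARE complexes apart, was called (-0.54, limma adjusted p = 5.09e-08). When scaled to total linear reads, 3 receptors, 3 channels and 5 active zone genes were called lower. Nplp3, a neuropeptide-like precursor, was the 1 of 31 neuropeptide genes that was called, and lower (3 lower when scaled to total linear reads, and 1 higher without day 20 replicate 2, day 10 replicate 1 or day 10 replicate 2), with 9320.2, 8953 and 8547 at day 20 and 16331, 16703 and 14953 at day 10 (-0.84). Of 18 glial genes 0 were called by limma, edgeR or DESeq2, with 10 at an unadjusted limma p under 0.05 (median -0.09, and 2 lower when scaled to total linear reads).

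Phototransduction genes differed little, and over all genes 6.06% were called higher and 2.31% lower. Of 32 genes 1 was called (3 when scaled to total linear reads), retinin, a protein of the corneal lens, which had 20815, 20122 and 20047 normalized reads at day 20 and 34782, 34470.0 and 35659 at day 10 (log2 difference -0.78, limma adjusted p = 1.15e-10). The main rhodopsin gene ninaE had 1002725, 980440.5 and 990023 at day 20 and 979861, 955544 and 970076 at day 10 (log2 difference 0.03, limma adjusted p = 0.527). Of 16 clock genes, Clk, the activator of the clock, was higher with 3846, 3939 and 3916 at day 20 and 2708, 2687 and 2556 at day 10 (0.56). per, whose product represses Clk, was lower with 7696, 7266 and 7577 at day 20 and 10906, 10739.9 and 12059 at day 10 (-0.58), and the clock output gene to was lower as well (-0.96). The ages did not overlap for these 3 genes. Clk lost its call when scaled to total linear reads.

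Cuticle and muscle genes were also among the falls. Of 71 cuticle protein genes 13 were called lower and 4 higher (median -0.24), against 2.31% and 6.06% of all genes. The count of higher ones was 2 without day 20 replicate 1 or when scaled to total linear reads. The 77 genes of the cuticle marker set summed to 23101 to 24391 normalized reads at day 20, against 31259 to 33300 at day 10. Cpr49Ag had 436, 417 and 392 at day 20 and 854, 867 and 858 at day 10 (-1.05), and Cpr47Ee had 420.2, 445 and 372 at day 20 and 940.0, 961 and 799 at day 10 (-1.12). The ages did not overlap, and Cpr49Ag averaged 4529 at day 0 and 335 at day 30. Of 11 tanning genes 2 fell, b (-0.55), which makes beta-alanine, and the pigment gene y (-0.85), with 4 lower when scaled to total linear reads. Of 30 muscle filament genes 2 were called lower (median -0.27, with 3 positive), 8 when scaled to total linear reads, 5 without day 10 replicate 2 and 1 without day 10 replicate 3. Act87E had 3466, 3645 and 3516 at day 20 and 5684, 5425 and 5824 at day 10 (-0.67), and Prm, paramyosin, 11671, 12050.5 and 11880.3 at day 20 and 16882, 15952 and 18193 at day 10 (-0.52, and -0.47 without day 10 replicate 3).

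Among single genes, CG11458 had the lowest difference of all 12685 genes, with 9.89, 8.02 and 2.43 normalized reads at day 20 and 115.4, 127 and 149.7 at day 10 (log2 difference -4.23, limma adjusted p = 6.82e-06). It averaged 21357 at day 0. dy, a gene of wing development, had 121, 139 and 148 at day 20 and 576, 583 and 558 at day 10 (-2.07), and means of 50.8 at day 0 and 81.5 at day 30, so that day 10 stood out as a high point. Nepl4, a gene of the neprilysin family of peptidases, had 1845, 2203 and 2159.6 at day 20 and 4924, 4823 and 5309 at day 10 (-1.28). shd, the enzyme that makes the active form of the steroid hormone ecdysone, had 146, 149 and 152 at day 20 and 340.3, 368 and 378 at day 10 (-1.27, limma adjusted p = 8.10e-10). The genes CG13840 (-1.96), CG32237 (-1.74), CG15282 (-1.62), ACXC (-1.49), an adenylyl cyclase, and CG8170 (-1.31) fell too. The small nuclear RNA gene snRNA:U12 had 211, 212 and 216 at day 20 and 400.5, 395 and 675 at day 10 (-1.15), and its call was lost without day 10 replicate 3 (limma adjusted p = 0.108).

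The change between day 10 and day 20 was next compared between the sexes, as the female difference minus the male difference in the same model. It was higher in females for 509 genes (4.01%) and lower for 68 (0.536%), and without male day 20 replicate 1 for 345 and 31. The first set held 13 of 15 antimicrobial peptide genes, and 10 without that library. DptA had 229.9 and 623 normalized reads in males of day 20 and 1404 and 4657 in males of day 10, the opposite order to that of females (difference of the log2 differences 9.28, limma adjusted p = 8.57e-05; 8.57 and 6.98e-04 without that library). The median log2 difference of the list was 3.05 in females and -1.62 in males, with male day 20 replicate 1 included. Male day 10 replicate 3 had more DptA than replicate 1, and with 2 libraries per age the male values rest on few samples.

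Storage protein and metabolic genes differed as well. Lsp1beta had 63866 and 51917 normalized reads in males of day 20 and 68957 and 67978 in males of day 10 (difference 2.51, limma adjusted p = 2.94e-06). All 4 male libraries lay above all 6 female libraries. bmm had 8989 and 9084 in males of day 20 and 9328 and 9110.0 in males of day 10 (difference 0.97, limma adjusted p = 4.65e-06; 0.96 and 4.63e-05 without male day 20 replicate 1). It was not called between the ages in males, and the females of day 20 lay just under the male libraries. tobi, Gnmt, Mdr50 and Amy-p had higher values in males of day 20 than of day 10 too, but the female difference was larger. With male day 20 replicate 1 included, the difference between the sexes was 2.69 for tobi, 2.44 for Gnmt, 2.01 for Mdr50 and 2.62 for Amy-p. Nepl4 and shd ran the other way: Nepl4 had 656 and 543 in males of day 20 and 317 and 319 in males of day 10 (difference -2.19, limma adjusted p = 1.31e-08), and shd had 173 and 173 in males of day 20 and 125 and 120.4 in males of day 10 (difference -1.76, limma adjusted p = 2.71e-07). Both differences kept their size without that library (-2.05 and -1.76). For Gad1 the difference between the sexes was -0.19, within the limit of 0.5 of a call.

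CircRNAs were more abundant at day 20. The sum over the 2774 circRNAs that passed the filter was 103809, 101752 and 104669.6 normalized reads at day 20, against 74758, 74235 and 70918 at day 10, or 103410.1 ± 1499 and 73304 ± 2082 (SD, n = 3 each). The libraries of an age lay close to each other, and the ages did not overlap (1.41-fold, two-sided exact permutation p = 0.1, the smallest possible). Over all circRNAs listed, without the filter, the sum of day 20 was 1.38-fold that of day 10, and relative to the linear reads of the same library it was 1.26-fold. In the alignment statistics of the paper, circRNA reads relative to linear reads were also higher in each day 20 library, but by less. Without the circles of mbl the sum over the filtered circRNAs was 1.33-fold that of day 10. The number of circRNAs with any read was 2548, 2329 and 2279 at day 20, against 2207, 2230 and 2128 at day 10, and day 20 replicate 1 was also the most deeply sequenced library. Drawn to 63015 circRNA reads per library, the means were 2337 at day 20 and 2183 at day 10.

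**Figure D4:**
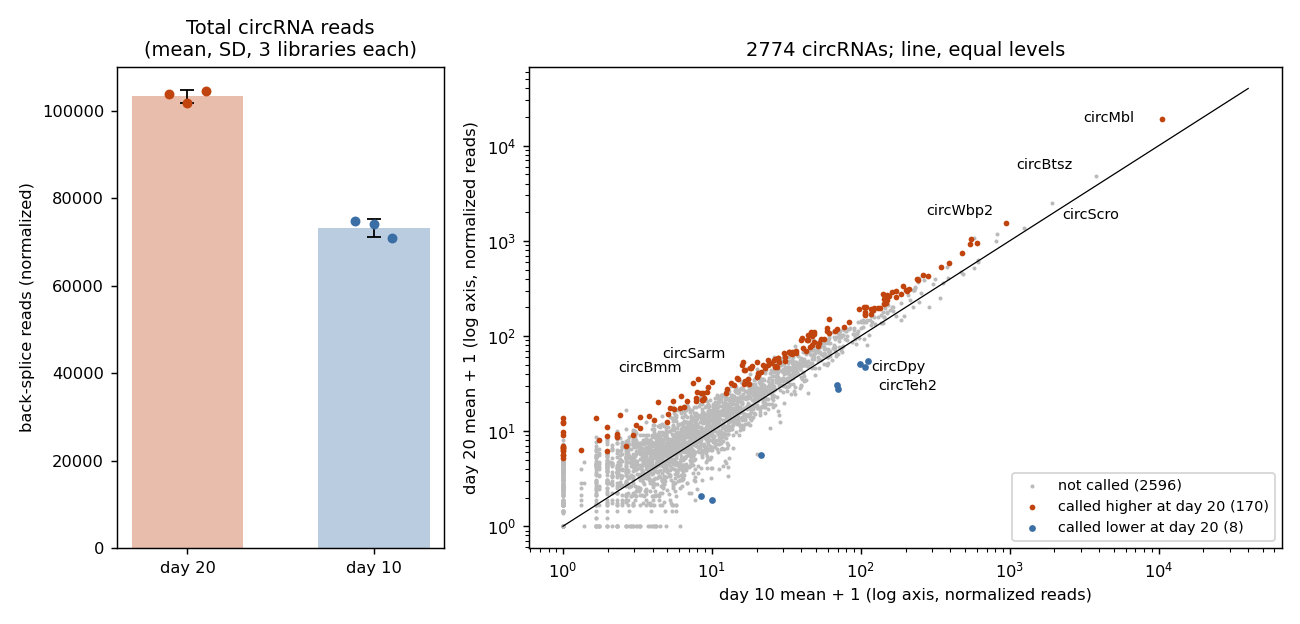
Left, total back-splice reads (normalized) at day 20 and day 10 with bars for the mean, error bars for the SD and a point for each of 3 libraries; right, mean level of each of 2774 circRNAs at day 20 against day 10 (both plus 1, log axes) with the line of equal levels. The total is 103410.1 reads at day 20 and 73304 at day 10, and the 170 circRNAs called higher (orange) outnumber the 8 called lower (blue).

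Of the 2774 circRNAs, 170 (6.13%) were called higher at day 20 and 8 (0.288%) lower, together 6.42%, and 1991 had a positive difference (median 0.41). The 170 called higher were chosen by their own rise in these libraries, so that little overlap follows from the choice. They included 165 without overlap between the ages, and among all circRNAs 24.9% had none in either direction. The share called grew with the level. With a mean under 5 normalized reads in the 6 libraries 19 of 1107 circRNAs (1.72%) were called higher, and with a mean of 100 or more 45 of 120 (37.5%), with median differences of 0.40 and 0.49. The count of higher circRNAs was 80 without day 20 replicate 3, 99 without day 20 replicate 1 and 108 without day 20 replicate 2, and that of lower ones was 4 without day 10 replicate 1 and 5 without day 20 replicate 2, day 20 replicate 3 or day 10 replicate 2.

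The circles described next are shown by their junctions, since the junction is the sequence that tells a circle from the linear RNA of its gene. Each line gives the last 30 bases before the back-splice in lower case and the first 30 bases after it in capitals, read in the direction of the RNA from the dm6 genome. The circles are circWbp2 at chr3L:12851309-12852277 (plus strand), a circle of dlg1 at chrX:11397825-11398822 (plus), the circle within Ank2 at chr3L:7662471-7663324 (minus strand, with CG44195 there too and CG32373 on the other strand), circBmm at chr3L:14777339-14777766 (minus), circSarm at chr3L:8106016-8106949 (plus), and, as the falling ones, circTeh2 at chr3L:4180731-4182873 (minus) and circDpy at chr2L:4496247-4513761 (minus).
circWbp2: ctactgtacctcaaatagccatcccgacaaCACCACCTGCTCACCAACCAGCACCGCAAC
circDlg1: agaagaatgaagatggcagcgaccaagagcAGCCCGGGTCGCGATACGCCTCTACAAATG
circle in Ank2: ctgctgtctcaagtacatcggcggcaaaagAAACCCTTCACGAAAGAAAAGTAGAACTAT
circBmm: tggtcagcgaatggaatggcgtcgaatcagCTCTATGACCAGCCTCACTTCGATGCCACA
circSarm: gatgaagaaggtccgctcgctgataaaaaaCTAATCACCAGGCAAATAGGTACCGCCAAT
circTeh2: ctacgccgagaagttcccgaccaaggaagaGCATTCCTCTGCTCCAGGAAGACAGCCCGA
circDpy: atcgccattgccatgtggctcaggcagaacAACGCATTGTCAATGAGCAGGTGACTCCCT

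The most abundant circle was circMbl at chr2R:17275410-17276063, a single exon of muscleblind, which encodes a splicing factor that can promote circularization of its own exon. It had 19831, 18757 and 19218 normalized reads at day 20 and 11283, 11538 and 8929 at day 10 (log2 difference 0.87, SE 0.24, limma adjusted p = 0.0339). The ages did not overlap, but day 10 replicate 3 was low, and the call was lost when any one of the 6 libraries was left out (adjusted p = 0.055 to 0.128). It held 18.6% of circRNA reads at day 20 and 14.4% at day 10. All 21 circles of mbl that were tested had positive differences, 5 were called, and their sum was 1.82-fold that of day 10. The linear reads of mbl were 80774, 78427 and 80075 at day 20 and 62823, 63651 and 56989.9 at day 10 (log2 difference 0.38, limma adjusted p = 0.0378), which includes any read within the exon of the circle.

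Other abundant circles rose to different extents. circWbp2, from 3 exons of a gene with a WW-domain binding protein, had 1602, 1536 and 1532 normalized reads at day 20 and 926, 1049 and 859 at day 10 (log2 difference 0.72, limma adjusted p = 3.85e-04). The circle within Ank2, a gene of the membrane skeleton of axons, listed without a single host, had 1034, 1068 and 1026 at day 20 and 591, 531 and 536 at day 10 (log2 difference 0.92, limma adjusted p = 3.36e-07). dlg1, a scaffold of synapses and cell junctions, gave a circle with 877, 919 and 955 at day 20 and 589, 527 and 503 at day 10 (0.77), and a second one at chrX:11395240-11396103 with 1208, 1138 and 1156 at day 20 and 818, 867 and 795 at day 10, whose difference was just under the limit (limma adjusted p = 0.00325). Each of these circles was higher in all 3 libraries of day 20 than in any of day 10. The circle of CaMKI, a calcium-dependent kinase (0.63), was called too, but the call was lost without any one library except day 10 replicate 3 (limma adjusted p = 0.0861 to 0.148) and without a filter (0.185).

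Circles of comparable level were not called. circBtsz, from bitesize, a synaptotagmin-like gene, had 4604, 4771 and 4949 normalized reads at day 20 and 3821, 3695 and 3816 at day 10, a log2 difference of 0.34 under the limit of 0.5 (limma adjusted p = 0.00129). circScro, from the homeobox gene scarecrow, had 2554, 2460.1 and 2522 at day 20 and 2009, 1975 and 1762 at day 10 (log2 difference 0.39, limma adjusted p = 0.46), with no overlap of the ages. In males it had 647 and 2648 normalized reads at day 20, against 1330.5 and 1731 at day 10. The adjusted p of circScro was 0.00154 by edgeR, 3.36e-04 by DESeq2, 1.09e-05 in a limma model of the females alone and 7.37e-04 by limma without male day 20 replicate 1, with a difference under the limit of 0.5 in each. The circle of PlexA, a semaphorin receptor, had 1004, 918 and 1066 at day 20 and 778, 886 and 769 at day 10 (0.30). The circle at chr2R:5423750-5424239, which lies within stw (straw), the gene of a laccase of cuticle tanning, had 1367, 1309 and 1383 at day 20 and 1354, 1272 and 1109 at day 10 (0.12, limma adjusted p = 0.735). Its ages overlapped, and its mean at day 0 was 3658. When scaled to total circRNA reads, which takes out the rise of the sum, 12 circRNAs were called higher and 13 lower.

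The largest rises came from circles of low level. circBmm, from the lipase gene bmm, had 37.6, 33.2 and 32.8 normalized reads at day 20 and 9.86, 7.88 and 3.38 at day 10 (log2 difference 2.24, limma adjusted p = 8.06e-04). Its host gene was called as well, and the ratio of the circle to its host was not (log2 difference 1.30, limma adjusted p = 0.0857). circSarm, from a gene needed for the degeneration of cut axons, had 48.2, 35.5 and 61.9 at day 20 and 20.7, 5.91 and 18.01 at day 10 (1.77), while the linear reads of Sarm differed by -0.07. Day 10 replicate 2 was the low library of this circle. The circles of Tomosyn (1.94), a brake of vesicle fusion, slo (1.94), a potassium channel gated by calcium, Dop1R2 (1.78), a dopamine receptor, for (2.18), the cGMP-dependent kinase of foraging behaviour, cnc (1.74), the regulator of the oxidative stress response, px (1.72), another circle of dlg1 (1.88) and mim (1.71) were also among the 10 largest rises. Of these, slo was listed at 0 in day 10 replicate 1, without which it was at 0.72 (limma adjusted p = 0.466), and for in day 10 replicate 3, without which it was at 0.94 (limma adjusted p = 0.101). The call of slo was also lost without any one library of day 20 (adjusted p = 0.0596 to 0.140), that of for without day 20 replicate 3 (0.0624), and both in the limma model of the females alone (0.0858 for slo and 0.0956 for for). The circle of Dop1R2 was at 1.13 without day 10 replicate 1 (limma adjusted p = 0.0588). That of Tomosyn lost its call without day 20 replicate 3 (adjusted p = 0.0539) and this one of dlg1 without day 20 replicate 2 (adjusted p = 0.0794). Of 13 circles of mim 5 were called, and of 5 of Sarm 3.

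Of the 8 circles called lower, 3 lay on the strand of a gene. circTeh2, from a gene of an accessory subunit of sodium channels, had 46.2, 64.2 and 51.0 normalized reads at day 20 and 121, 100.4 and 109 at day 10 (log2 difference -1.03, limma adjusted p = 0.00117), and its host differed by -0.32. circDpy, which spans 31 exon blocks of dumpy, the gene of a giant matrix protein that anchors epidermis to cuticle, had 44.9, 55.0 and 49.7 at day 20 and 95.7, 84.7 and 114.8 at day 10 (-0.96), and its host differed by -0.30. The circle of CG34377 had 21.1, 18.3 and 48.5 at day 20 and 63.1, 62.0 and 78.8 at day 10 (-1.31), with a host that was called lower (-0.58). The ages did not overlap for any of the 3, and day 20 replicate 3 was high for CG34377, whose circle lost its call without day 20 replicate 2 (-1.05, limma adjusted p = 0.0643).

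Circles and their host genes were then set side by side. Of the 170 circRNAs called higher, 158 had a single host, and in 7 of these the host was called higher, in 0 lower and in 151 neither way. Over all genes 6.06% were called higher and 2.31% lower. The median host difference of the 158 was -0.06, against -0.15 over all circRNAs, with hosts counted once per circle. The 7 belonged to ACC, CG3036, Damm, Gnmt, ap and bmm. Among 2594 circRNAs with a host value, the ratio of circle to host was called higher for 219 (8.44%) and lower for 3 (0.116%), together 8.56%, with a median of 0.55. With the replicate number as a block 0 ratios were called in either direction, with the 6 libraries alone 117 were called higher and with a pseudocount of 5 361. The counts were 134 to 145 higher when any one library of day 20 was left out, and 9 and 5 lower without day 20 replicate 1 and day 10 replicate 2. The circle and its own linear reads shared the libraries, and reads within the exons of a circle count for both.

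**Figure D5:**
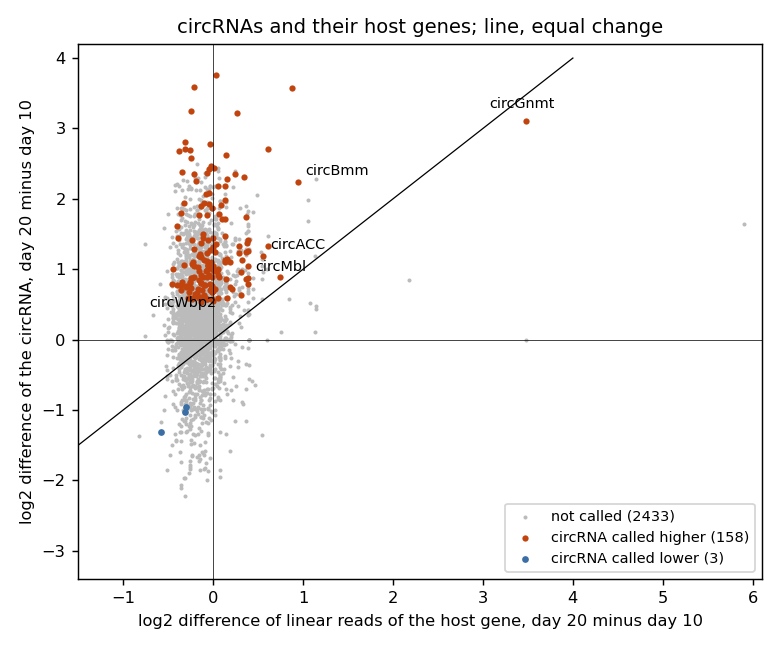
Difference of each of 2594 circRNAs (log2, vertical axis) against the difference of the linear reads of its host gene (log2, horizontal axis), day 20 minus day 10 in females, with the line of equal change. Of all 2594 circRNAs 2069 lie above the line. Of the 158 called higher (orange), which were chosen by their own rise, 157 do so, most of them with hosts near 0. circGnmt lies near the line with a host difference of 3.47.

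Of 82 circles from genes of RNA-binding and editing factors, mbl among them, 11 were called higher (13.4%) and 0 lower, with a median of 0.59, against 6.13% and 0.41 over all circRNAs. Of 97 circles from voltage-gated channel genes 6 were called higher (median 0.43), and the linear RNAs of these hosts, counted once per circle, had a median of -0.31. Of 92 circles from genes of the active zone and vesicle fusion 6 were called higher (median 0.31, hosts -0.32). For brp, whose protein builds the active zone, 12 of 17 circles had positive differences, against 1991 of 2774 over all circRNAs, and 1 was called higher. The brp circles summed to 662, 697 and 578 normalized reads at day 20 and 619, 568 and 612 at day 10. That is 1.08-fold with overlapping ages, while the linear RNA of brp differed by -0.38. Of 25 circles from muscle filament genes 0 were called in either direction by limma, 1 by edgeR and 2 by DESeq2, with 3 at an unadjusted limma p under 0.05 (median 0.00, hosts -0.22), and their sum was 503 to 563 normalized reads at day 20, against 545 to 639 at day 10.

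For circRNAs the change differed between the sexes in 1 case (0.036%) and 274 had an unadjusted limma p under 0.05. A circle of Nipped-A, a subunit of histone acetyltransferase complexes, had 51.5, 52.7 and 61.9 normalized reads in females of day 20 and 34.5, 38.4 and 28.1 in females of day 10. In males it had 4.0 and 15.2 at day 20 and 35.2 and 39.8 at day 10 (difference of the log2 differences 2.80, and 1.96 with limma adjusted p = 0.011 without male day 20 replicate 1). For circMbl the difference between the sexes was 0.50 (limma adjusted p = 0.747).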

How the data were processed

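Total RNA of pooled fly heads was sequenced after ribosomal depletion. The authors aligned reads to dm6 with STAR, counted genes with featureCounts and found circRNAs as back-splice reads with find_circ2; tool versions are not given in the sources used here. The deposited values are a signal, reads divided by a DESeq2 size factor per library. Whole reads came back for 100% of values (within 0.01 reads), and the counting depth given above is that of these recovered reads. For circRNAs it is above the depth that the paper lists. Recovered reads of 32 of 33 columns were used, and male day 20 replicate 1 was left out of the edgeR and DESeq2 fits. No column of the authors' own comparisons was used. Genes had a mean of at least 10, and circRNAs a span of at least 50 nt and a mean of 1 in every group or 10 in any sample; replicates 1 and 2 of female day 50 had identical back-splice reads and were counted as 1 sample for circRNAs. limma 3.58.1 (R 4.3.3; trend and robust options) fitted log2(value + 1) with a mean for each of 12 groups of sex and age. edgeR 4.0.16 (TMM) and DESeq2 1.42.0 on recovered whole reads, other filters, pseudocounts of 0.5 and 5, other scalings and left-out libraries were alternatives. Data were simulated with the same assumed spread for all features of a kind, not fitted to these data. Each feature had its mean level over the libraries, and 200 were changed. On these data limma recovered 94% of linear genes changed 2-fold and 99% changed 4-fold, and 26% and 71% of circRNAs. The rates hold for those settings only. Genes were named by rule: the 15 largest called rises and falls without overlap and with a mean of 100 in the higher group, and up to 4 members of each list; circRNAs were the 10 most abundant, the 10 largest called rises and the called falls with a mean of 20 in the higher group, without overlap, and circles of listed hosts. Other genes were named after their values were seen. Members and lists were chosen with earlier results of these data known. Sequences are from the RefSeq genome of Release 6, and gene starts and exons from the Ensembl annotation. Figures were drawn with matplotlib 3.10.9. The strand setting of the counting is not given in the sources used here, so overlapping genes may share reads.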

Additional observations from a re-analysis of the deposited data

Results flagged for a closer look

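The change between day 10 and day 20 differed between the sexes, by the interaction term of limma, for 509 linear genes in the direction of females, 68 in the direction of males and 1 circRNA, a circle of Nipped-A. Among the named genes, the difference of the log2 differences (female minus male) was 9.28 for DptA, 8.27 for CecA1, 7.71 for CecA2, 6.63 for Dro, 5.62 for AttA, 5.25 for DptB, 4.71 for CecC, 4.67 for CecB, 4.62 for AttB, 4.12 for AttD, 3.65 for AttC, 2.89 for Mtk and 2.24 for Drs, all antimicrobial peptide genes. Of other immune genes it was 3.93 for PGRP-SC2, 1.7 for PGRP-SB1, 1.05 for BomS1, 0.95 for PGRP-SA and 0.53 for Stat92E. Of the storage and yolk group it was 5.76 for Lsp2, 2.51 for Lsp1beta, 2.24 for Lsp1alpha, 1.83 for Yp3 and 0.99 for apolpp. Of metabolic, transport and stress genes it was 2.69 for tobi, 2.62 for Amy-p, 2.44 for Gnmt, 2.01 for Mdr50, 1.2 for Cyp309a2, 0.99 for MsrA, 0.97 for bmm, 0.85 for Hsp26, 0.68 for Ldh, 0.63 for AcCoAS, 0.57 for Men and 0.51 for Cyp28d1. It was 4.82 for FBgn0028519, which has no name here, and 3.17 for Obp99a. Lower values in females were found for Prm (-0.59), Act87E (-0.6), CG32237 (-1.23), shd (-1.76) and Nepl4 (-2.19). The values of these genes include male day 20 replicate 1. Males were represented by 2 libraries at each age, and without male day 20 replicate 1 the counts were 345 and 31 linear genes. Yp3 and apolpp, the 2 called members of the yolk list, lost this call without it. So did BomS1 (Toll-induced short peptides, 2 to 0 higher) and Prm and Act87E (muscle filament genes, 5 to 0 lower). Antimicrobial peptide genes went from 13 to 10, whereas genes of lipid synthesis and storage went from 3 to 6.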

How the results depend on the processing

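Of 87 named linear genes that were called, 70 were called in all alternative fits and 0 changed sign. Of 32 named circRNAs that were called, 2 were called in all of them, 30 lost the call in some and 0 changed sign. The number of linear genes without a limit on the fold was 2050 higher and 1929 lower, and scaling to total linear reads gave 708 lower. For circRNAs called higher, the count was 313 by DESeq2, 12 when scaled to total circRNA reads, 93 with the replicate number as a block and 80 to 144 with one of the 6 libraries left out (215 without male day 20 replicate 1). For circRNAs called lower it was 15 by DESeq2, 13 when scaled, 16 without a filter, 4 with the block and 4 to 10 with a library left out. Scaled to total circRNA reads, 4 abundant circles turned negative: circScro (-0.10), circBtsz (-0.16), the circle of PlexA (-0.20) and that in stw (-0.37). The ratios of circle to host called were 361 higher and 8 lower with a pseudocount of 5, 117 higher with the 6 libraries alone, 0 and 0 with the block, and 134 to 185 higher and 2 to 9 lower with a library left out (249 higher without male day 20 replicate 1). Between the sexes, 31 linear genes were lower without male day 20 replicate 1, and 2 and 3 circRNAs were called with a pseudocount of 5. The cause of these shifts was not tested. Same-numbered libraries did not deviate together (correlations of -0.02 to 0.02). With 3 libraries per age this cannot settle whether same-numbered samples shared a culture or were handled together. In data simulated with an assumed spread, 26% of circRNAs changed 2-fold were recovered.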

Other observations

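Among kinds of RNA, 19 of 122 small nucleolar RNA genes, which guide the modification of ribosomal RNA, were called higher and 0 lower (median 0.19), and 8 of 68 tRNA genes were called lower and 0 higher (median -0.19), against 6.06% and 2.31% of all genes. Both kinds are short and many tRNA genes are near-identical copies.

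Of the 8 circRNAs called lower, 5 lay where the annotation has genes only on the strand opposite to that of the splice letters, and all 5 were chosen after their values were seen. Circles at chr3R:19886301-19886470 and chr3R:19886301-19886520, opposite the rhodopsin gene ninaE, had log2 differences of -1.30 and -1.25. Circles at chr3L:17400881-17401022 and chr3L:17400928-17401011, opposite lncRNA:noe, had differences of -2.01 and -2.68, and the circle at chr2R:12273925-12274038, opposite the calmodulin gene Cam, had -2.32. The values of the ages did not overlap in any of them, with 31.7, 43.6 and 61.9 normalized reads at day 20 and 121, 107 and 91.2 at day 10 in the most abundant. All 5 lost the call when single libraries were left out. The ninaE pair lost it without day 20 replicate 1 or 2 or day 10 replicate 1 or 2 (limma adjusted p = 0.0647 to 0.104 and 0.0702 to 0.140), and the first noe circle without day 20 replicate 1, day 20 replicate 3 or day 10 replicate 2 (0.0547 to 0.0804). The second noe circle and the circle opposite Cam lost it without any one library except day 20 replicate 1 (0.058 to 0.142 and 0.0511 to 0.169), and by edgeR (0.0653 and 0.133). Among all 2774 circRNAs 59 lay so, with a median span of 170 nt, against 1840 nt for the 2709 on the strand of a gene, and their median difference was 0.00, with 3 called higher and 5 lower. The linear RNAs opposite to them rank high in these libraries: ninaE was the most abundant gene (rank 1), lncRNA:noe had rank 9 and Cam rank 39 by mean level, and they differed by 0.03, -0.39 and -0.15. The part of these abundant RNAs in the circles was not tested.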
